A study of Mus musculus with 4 samples.

Results

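The retinoid genes described here bind, break down, oxidise or sense vitamin A and its derivatives. They are Crabp1, Crabp2, Rbp4, Cyp26a1, Cyp26b1, Rara, Rarg, Rxra and Dhrs9. The members were every probe set whose single gene symbol in the array maker's annotation was 1 of these 9 names. This gave 11 probe sets for 8 genes, of 45037 probe sets and 18193 named genes on the array. Dhrs9, a retinol dehydrogenase, matched no probe set and was not analysed here. RNA came from dorsal skin of mice at postnatal day 16, with 2 bitransgenic animals that overexpressed deltaNp63alpha, an isoform of the epithelial transcription factor p63, and 2 wild type animals. Each array held RNA of a separate animal, per the labels (n = 2 per group throughout). The labels name no promoter that drives the transgene, no inducing agent, no strain, no sex and no litter.

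Retinol travels in blood bound to Rbp4, and cells take it up and oxidise it first to retinaldehyde and then to retinoic acid. Crabp1 and Crabp2 hold retinoic acid in the cell, Cyp26a1 and Cyp26b1 hydroxylate it for removal, and dimers of a retinoic acid receptor (Rara, Rarg) with Rxra carry its signal to DNA. In skin, retinoic acid is known to act on keratinocyte growth and differentiation and on the hair follicle, and the receptors that prevail in epidermis are Rarg and Rxra.

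Such dimers bind direct repeats of a short half-site. A search of RefSeq promoter windows (assembly GRCm38.p6, 250 bases before to 50 after each start, both strands) used the repeat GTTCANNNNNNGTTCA, in which N is any base. Only this pattern was searched, so a window without a match may hold another form of repeat. The repeat was found in 25 of 32851 windows, or 0.0761%. Windows were given for 8 of the 9 genes, all but Crabp2, and Cyp26a1 was the 1 member with a match. Among 48 other genes of the pathway with a window, 1 had a match, Rarb, the retinoic acid receptor beta gene. Both stretches are shown because these genes are textbook readouts of retinoic acid and are described below. Capitals mark the bases that the pattern fixes, which need not span the whole half-site. Both stretches are read on the minus strand, from chr19:37697771-37697796 for Cyp26a1 and chr14:16575508-16575533 for Rarb.
Cyp26a1: aattaGTTCAcccaaaGTTCAtcttt
Rarb: gaaggGTTCAccgaaaGTTCActcgc
Cyp26a1 lies on the plus strand, so its repeat runs against the gene, while that of Rarb runs with it. The half-site consensus of the p53 family, to which p63 belongs, was found in 8.36% of all windows and in that of 1 member, Crabp1. A match is a description of letters, and binding was not measured.

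The overexpressed gene was read first. Of the 4 Trp63 probe sets, the second by identifier had signals of 10325 and 15247 in bitransgenic skin, against 206 and 838 in wild type skin. The third had 4644 and 9920 in bitransgenic skin, against 161 and 473 in wild type skin. In limma's fit of all probe sets, the adjusted p was 0.0613 for the second and 0.0591 for the third. Neither passed the threshold given below, despite log2 differences of 4.85 and 4.53. The other pair differed by -0.037 and -0.33 on the log2 scale. The probe set at -0.037 had the highest mean, so it stood for Trp63 in the fit of all genes. Missing the threshold in either fit thus does not show that a gene was unchanged. Array medians lay between 97.5 and 112.8. The wild type arrays correlated at 0.918, and wild type replicate 2 correlated with bitransgenic replicate 2 at 0.920.

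Of the retinoid genes, Crabp2 had the largest difference upward and Rbp4 the largest downward, and neither passed the threshold of 0.05 on limma's adjusted p. Crabp2 was 3.01-fold higher and Rbp4 2.82-fold lower in bitransgenic skin, with no overlap between the groups. Of the other 6 genes with a probe set, Crabp1, Cyp26a1, Cyp26b1 and Rara overlapped between the genotypes, and Rarg and Rxra were 1.24-fold and 1.12-fold higher in bitransgenic skin at the probe set that stood for the gene. Of the 6 genes in limma's fit of all genes, 0 were called, where 2.33% of 13070 genes were. At an unadjusted p under 0.05, 1 was higher and 1 lower, where 6.91% of all genes were higher and 9.76% lower. Groups did not overlap in 4 of the 6, beside 48.8% of all genes tested. In the fit of all probe sets, 0 of the 11 were called, beside 0.173% of 45037, and 2 had an unadjusted p under 0.05, beside 9.97% of all probe sets. Groups did not overlap at 5 of the 11, beside 40% of all probe sets, a share near that of the array as a whole. The median log2 difference was 0.23 over the 6 genes and 0.0053 over all genes tested.

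**Figure D1:**
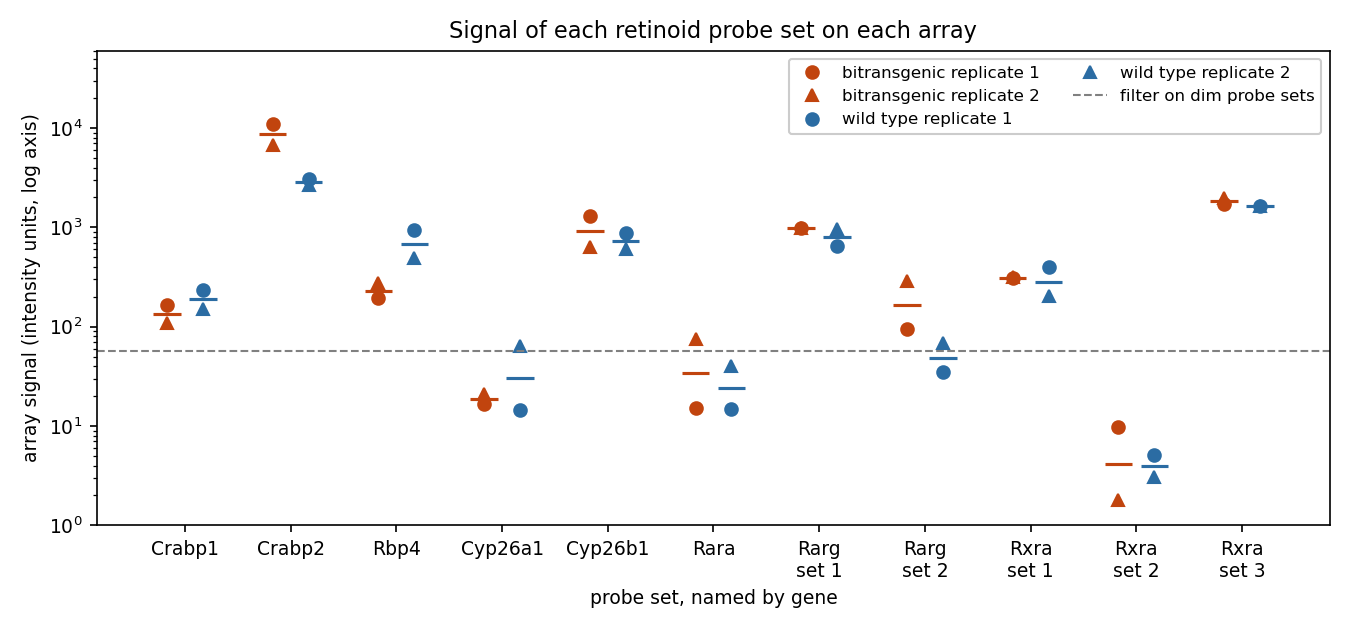
Array signal (intensity units, log axis) of the 11 retinoid probe sets, with bitransgenic arrays left of wild type arrays, circles for replicate 1, triangles for replicate 2, bars for the geometric mean of the group and a dashed line at 57.0, the signal of the filter on dim probe sets. Crabp2 reads 6819.8 and 10964 in bitransgenic skin, above both wild type arrays, while the Rbp4 points lie the other way round.

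Crabp2 codes for the cellular retinoic acid-binding protein that hands its ligand to the receptors, and is known from differentiating keratinocytes. Its only probe set had signals of 10964 and 6819.8 in bitransgenic skin, against 3096 and 2646 in wild type skin. Both bitransgenic arrays lay above both wild type arrays, and the bitransgenic pair was spread more widely. The means were 8892 ± 2931 in bitransgenic skin and 2871 ± 318 in wild type skin (SD). The difference was 1.59 ± 0.30 (SE) on the log2(signal + 16) scale, the scale of all fits here, with a 95% interval of 0.88 to 2.30. Limma's adjusted p was 0.0538, rank 326 of the genes tested, and so missed the threshold. Within replicate 1 the difference was 1.82 and within replicate 2 it was 1.36. It passed under 3 of the 14 alternatives, among them equal array medians (1.67, adjusted p = 0.0411) and the fit without wild type replicate 1 (1.70, adjusted p = 0.046). Over all 14 the adjusted p ran from 0.0144 to 0.25. The summed signal of 10 keratinocyte markers was 105905 and 147187 in bitransgenic skin, against 131158 and 126206 in wild type skin, so these sums overlapped. Of these markers, limma's fit of all genes called 1 higher, Flg, and 1 lower, Krt15. Flg, the filaggrin gene of late differentiation, had signals of 3178 and 2489 in bitransgenic skin, against 655 and 606 in wild type skin (limma adjusted p = 0.0156). Lor, the loricrin gene of the same late stage, lay the other way, with 7171 and 3779 in bitransgenic skin, against 16101 and 8350 in wild type skin. Its groups did not overlap either, and its log2 difference was -1.15 (limma adjusted p = 0.247). Dsg1a, a desmosomal cadherin gene, had a log2 difference of -0.68 (adjusted p = 0.28). Krt1 and Ivl lay on the higher side, with log2 differences of 1.58 and 1.35. Neither overlapped between groups, and neither was called. The 10 markers had 5 values above and 5 below 0, with 2 higher and 3 lower at an unadjusted p under 0.05. The part of cell composition in the Crabp2 difference was not tested.

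Crabp1 codes for the sister protein, which binds retinoic acid in the cytoplasm and is known in mouse skin from dermal papilla cells and dermal fibroblasts. Its signals were 167 and 108 in bitransgenic skin, against 237 and 150 in wild type skin. The groups overlapped, although the signal was lower in bitransgenic skin within each replicate number (log2 -0.47 and -0.42). The difference was -0.44 on the log2 scale (95% interval -1.41 to 0.52, limma adjusted p = 0.652), so neither a 2-fold fall nor a small rise lay outside the interval. The dermal papilla markers summed to 2174 and 2502 in bitransgenic skin, against 4568 and 3913 in wild type skin. Of 12 such markers, 8 were tested and 0 called, with a median log2 difference of -0.92 and 3 lower at an unadjusted p under 0.05. Those of dermal fibroblasts summed to 64221 and 81379 in bitransgenic skin, against 143726 and 120694 in wild type skin, with a median of -0.83 over 9 genes and 0 called. In a piece of skin, fewer cells of a type and less RNA per cell cannot be told apart.

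Rbp4 codes for the retinol carrier of plasma, which liver and fat cells secrete. Its only probe set had signals of 193 and 277 in bitransgenic skin, against 940 and 493 in wild type skin. Both bitransgenic arrays lay below both wild type arrays, with wild type replicate 1 the highest. The means were 235 ± 59.5 in bitransgenic skin and 717 ± 316 in wild type skin (SD), and the log2 difference was -1.50 ± 0.40 (SE, 95% interval -2.47 to -0.53, limma adjusted p = 0.128). It was -2.20 within replicate 1 and -0.80 within replicate 2. Without wild type replicate 2, which leaves 1 wild type array, it was -1.95. With all 4 arrays no alternative passed. The 8 fat cell markers on the array were all lower in bitransgenic skin with no overlap between groups, at a median of -1.13, and 0 were called, with 6 at an unadjusted p under 0.05. Their sum was 30970 and 39945 in bitransgenic skin, against 69833 and 61053 in wild type skin. Their log2 differences ran from -2.27 for Lep to -0.53 for Lipe, and that of Adipoq, the adiponectin gene of fat cells, was -1.50. Whether fat cell content bore on the Rbp4 value was not tested.

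The enzymes that clear retinoic acid showed no difference past the spread between arrays. Cyp26b1, the form known from dermis and from skin development, had signals of 1306 and 637 in bitransgenic skin, against 871 and 612 in wild type skin. The bitransgenic replicates lay further apart than the group means, and the log2 difference was 0.32 ± 0.40 (SE, 95% interval -0.65 to 1.28, limma adjusted p = 0.762). It turned to -0.19 without bitransgenic replicate 1. Cyp26a1, the form that retinoic acid induces most directly and whose promoter carries the repeat printed above, was near the low end of the array. Its signals were 16.8 and 20.8 in bitransgenic skin, against 14.5 and 63.7 in wild type skin. All but wild type replicate 2 lay below the filter signal of 57.0, so Cyp26a1 was not in the gene fit, and the direction rested on that 1 array. In the fit of all probe sets the log2 difference was -0.50 (95% interval -1.83 to 0.82, limma adjusted p = 0.833), and 0.19 without wild type replicate 2.

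Of the nuclear receptors, Rarg and Rxra were read above the filter and Rara below it, and none passed the threshold. Rarg, the main retinoic acid receptor of epidermis, was read by 2 probe sets. The brighter one had 994 and 983 in bitransgenic skin, against 656 and 964 in wild type skin. Its groups did not overlap by a narrow margin, and its log2 difference was 0.31 (95% interval -0.39 to 1.0, limma adjusted p = 0.665). The other was dim, with 95.6 and 287 in bitransgenic skin, against 34.7 and 68.6 in wild type skin. Its log2 difference was 1.49 (95% interval -0.013 to 2.99, adjusted p = 0.506 in limma's fit of all probe sets), so the probe sets pointed the same way with sizes that differed. Rxra, the shared partner of many nuclear receptors, was read by 3 probe sets. The brightest had 1704 and 1991 in bitransgenic skin, against 1642 and 1656 in wild type skin. That is a log2 difference of 0.16 (95% interval -0.41 to 0.73, limma adjusted p = 0.803), so a 2-fold difference either way lay outside its interval. The middle one had 308 and 318 in bitransgenic skin, within the 399 and 203 of wild type skin. The third was below the filter signal on all 4 arrays. Rara, the receptor found in most tissues, was read by 1 dim probe set, with 15.2 and 75.5 in bitransgenic skin, against 14.9 and 39.8 in wild type skin. Its log2 difference of 0.36 (95% interval -1.18 to 1.91) says little about Rara in either direction, and its sign turned without bitransgenic replicate 2 or wild type replicate 1 (-0.41 and -0.063).

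**Figure D2:**
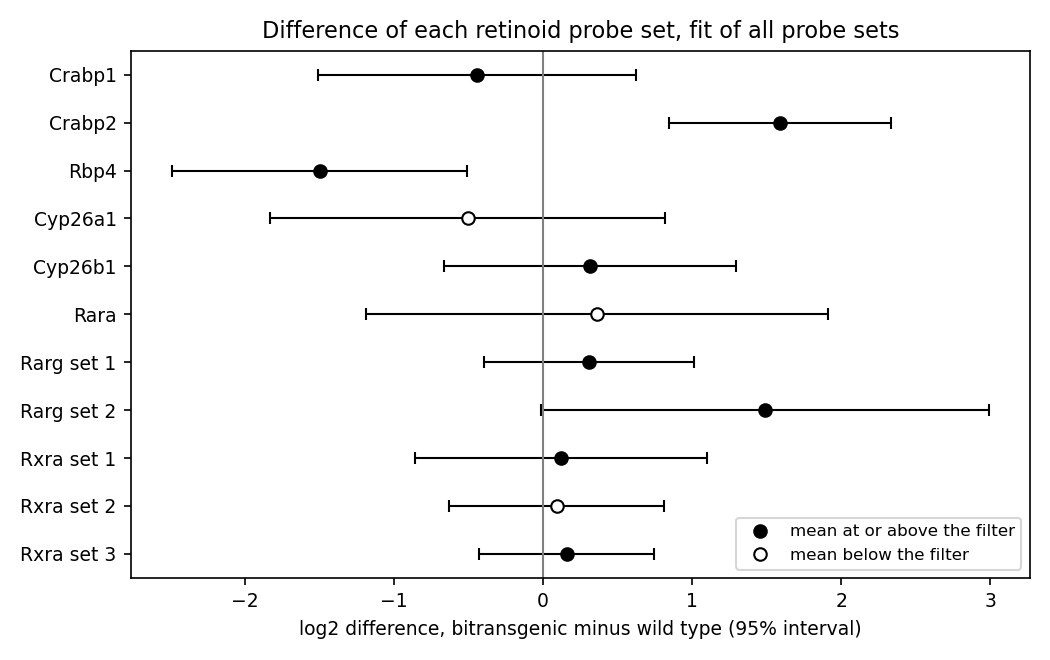
Log2 difference, bitransgenic minus wild type, of the 11 retinoid probe sets in limma's fit of all 45037 probe sets, with 95% intervals. Filled points had a mean at or above the filter and open points lay below it. Only the intervals of Crabp2 (0.84 to 2.33) and Rbp4 (-2.49 to -0.51) leave out 0.

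Around these genes, 68 other genes of retinoid uptake, conversion, sensing and response were listed. Of these, 59 had a probe set and 46 were tested, of which 2 rose, 0 fell and 44 did not pass, or 4.35% called beside 2.33% of all genes. The 2 that rose were Rdh12 and Adh7, both of which code for enzymes that interconvert retinol and retinaldehyde. The median of the 46 was 0.15, beside 0.0053 over all genes, and differences ran from -1.97 to 1.93. At an unadjusted p under 0.05, 8 of the 46 were higher and 8 lower. These are larger shares than the 6.91% higher and 9.76% lower of all genes, and the list was not tested as a set.

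Rdh12, a retinaldehyde reductase best known from photoreceptors, had signals of 5472 and 6166 in bitransgenic skin, against 1219 and 2032 in wild type skin. Every bitransgenic value exceeded every wild type value by over 2-fold. The difference was 1.87 ± 0.30 (SE), or 3.66-fold, with limma's adjusted p = 0.0358. A second Rdh12 probe set had 2373 and 2728 in bitransgenic skin, against 532 and 1026 in wild type skin. Adh7, a class IV alcohol dehydrogenase of epithelia that oxidises retinol, had 1278 and 1978 in bitransgenic skin, against 389 and 514 in wild type skin. Again the groups were apart, with a difference of 1.79 ± 0.32 (SE), or 3.47-fold, and an adjusted p = 0.0484. Its other probe set had 1433 and 1322 in bitransgenic skin, against 292 and 464 in wild type skin. The Rdh12 call was lost without bitransgenic replicate 1 (log2 difference 1.96, adjusted p = 0.137) or replicate 2 (1.79, 0.141). That of Adh7 was lost without bitransgenic replicate 1 (2.11, 0.118), bitransgenic replicate 2 (1.48, 0.249) or wild type replicate 1 (1.60, 0.0526). With all 4 arrays, both were lost with no filter (adjusted p = 0.0535 for Rdh12 and 0.0684 for Adh7) or no intensity trend (0.0674 and 0.072). Rdh12 was also lost with averaged probe sets (0.0596), and Adh7 with a pseudocount of 1 (0.0512) or 64 (0.0504). In all, Rdh12 passed under 9 and Adh7 under 7 of the 14. The adjusted p ran from 0.00454 to 0.141 for Rdh12 and from 0.0169 to 0.249 for Adh7 over the 14 alternatives. Of the 46 genes, 1 rose without wild type replicate 1, 5 rose without wild type replicate 2 and 0 rose without either bitransgenic replicate.

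In the same list of 24 enzymes, of which 18 were tested, Aldh1a1 was the third by p. It codes for a retinaldehyde dehydrogenase that makes retinoic acid, and had 320 and 330 in bitransgenic skin, against 1061 and 640 in wild type skin. The difference was -1.30 ± 0.34 (SE, limma adjusted p = 0.118), which passed without wild type replicate 2 (-1.66, 0.0266) and ran up to 0.453 over the alternatives. The list's median was 0.15, with 10 values above and 8 below 0. Aldh1a2 and Aldh1a3 code for other such dehydrogenases and were picked with their values known. Their log2 differences were 0.56 and 0.17 (limma adjusted p = 0.564 and 0.864). Aldh8a1 lay below the filter and was not tested.

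Of 15 genes of uptake, storage and transport, 8 were tested and 0 passed, with a median of 0.53. Rbp2, the retinol-binding protein of intestinal cells, had 362 and 665 in bitransgenic skin, against 62.4 and 212 in wild type skin (log2 difference 1.93 ± 0.58, SE, limma adjusted p = 0.16). The groups did not overlap, but the wild type arrays differed by over 3-fold. Rbp2 passed under 2 of the 14 alternatives, among them the fit without wild type replicate 2 (2.70, adjusted p = 0.0147), and without wild type replicate 1 its log2 difference was 1.16 (adjusted p = 0.247). Rbp7, a retinol-binding protein of fat and vessels, had a value of 0.71 (adjusted p = 0.218), and Bco1, which cleaves beta-carotene to retinaldehyde, -1.22 (0.235). Bco1 signals were 59 and 31.6 in bitransgenic skin, against 157 and 95.3 in wild type skin. The bitransgenic mean of 45.3 lay under the filter signal of 57.0, so Bco1 passed the filter through wild type skin. With no filter its limma adjusted p was 0.315. Stra6, the membrane receptor for Rbp4, was chosen after its values were seen. It had 21.7 and 49.2 in bitransgenic skin, against 65.1 and 446 in wild type skin. Both bitransgenic signals lay under the filter signal, so Stra6 passed the filter through wild type skin alone, and its high signal lay in wild type replicate 2.

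Among 19 other receptors, partners and cofactors, 15 were tested and 0 passed, with a median of -0.14. Rarb, whose promoter repeat is printed above, had 42.7 and 49.4 in bitransgenic skin, against 159 and 130 in wild type skin. Both bitransgenic signals lay under the filter signal, so Rarb passed the filter through wild type skin alone. The difference was -1.37 ± 0.36 (SE, limma adjusted p = 0.126). Over the alternatives the adjusted p of Rarb ran from 0.0857 to 0.483. Ppard, a nuclear receptor of keratinocytes that pairs with Rxra, had 893 and 1006 in bitransgenic skin, against 309 and 467 in wild type skin. That is a difference of 1.28 ± 0.31 (SE, limma adjusted p = 0.104), and 1.57 without wild type replicate 2, which leaves 1 wild type array. With all 4 arrays, Ppard passed under no alternative. Ncoa2, a coactivator of nuclear receptors, had a value of -0.94 (adjusted p = 0.117), and all 4 of its probe sets were lower in bitransgenic skin.

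Of 15 genes known to respond to retinoic acid, 9 were tested and 0 passed, with a median of 0.0035, 5 values above 0 and 4 below. The list shares Rarb, Stra6, Lrat and Dhrs3 with those above. Hbegf, an EGF family ligand that topical retinoids induce in epidermis, had 1152 and 1567 in bitransgenic skin, against 423 and 663 in wild type skin. The difference was 1.32 ± 0.33 (SE, limma adjusted p = 0.11), and 1.63 without wild type replicate 2. With all 4 arrays, Hbegf passed only with replicate number added to the fit (limma adjusted p = 0.0414). Rai14, named as a retinoic acid-induced gene, had a value of -0.84 (adjusted p = 0.256). Dhrs3 and Rarres1, chosen after their values were seen, were near level at -0.071 and 0.0035 (adjusted p = 0.947 and 0.998). Dhrs3 codes for a retinaldehyde reductase that retinoic acid induces.

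**Figure D3:**
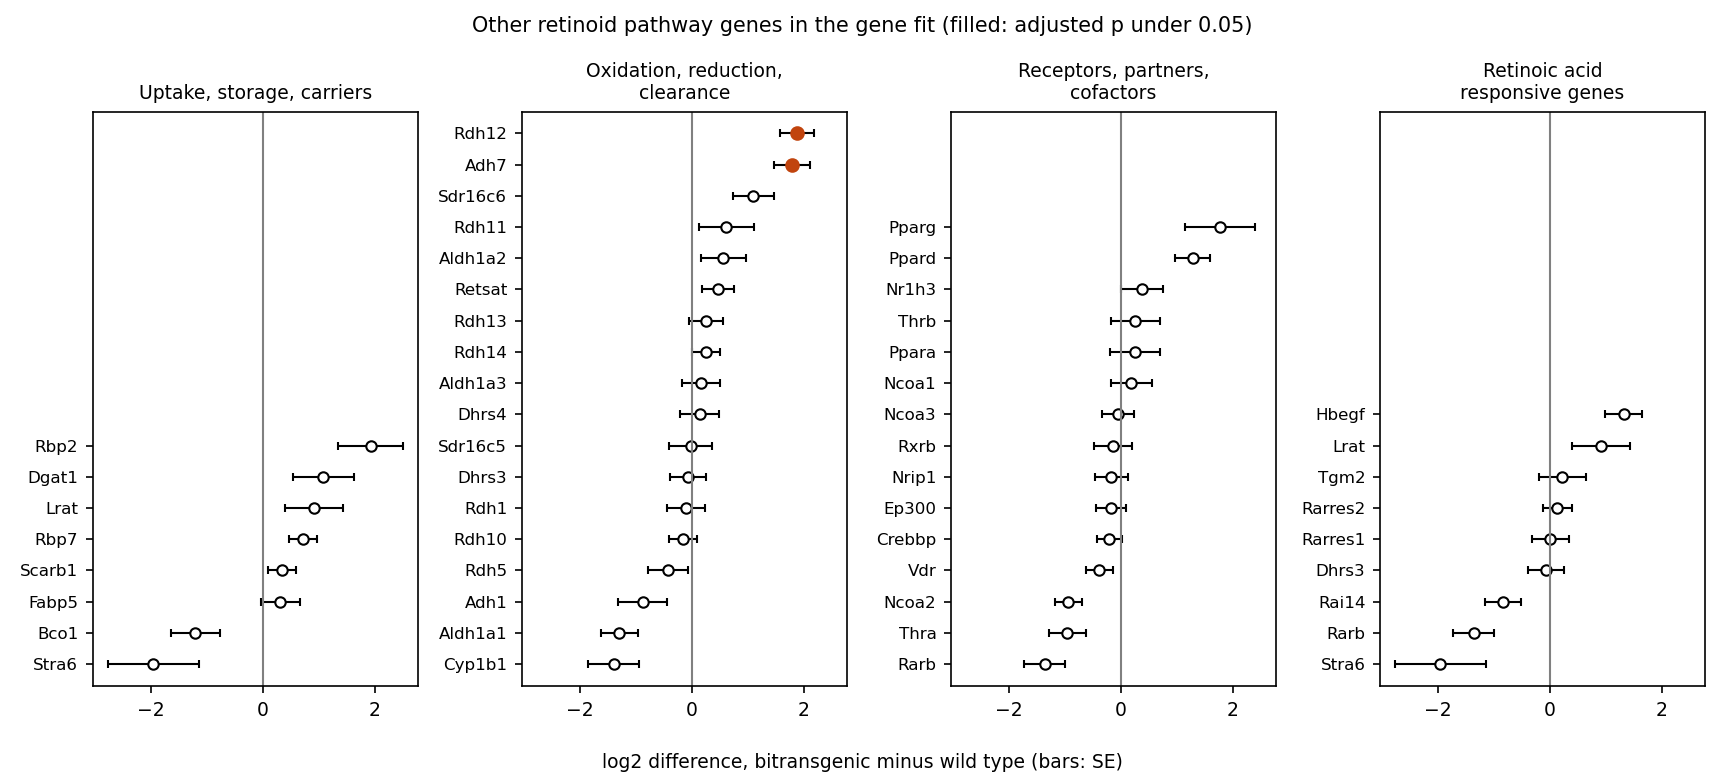
Log2 difference, bitransgenic minus wild type, of the tested genes of 4 retinoid lists in limma's fit of 13070 genes, with bars of 1 SE. Filled points had an adjusted p under 0.05, which were Rdh12 (1.87) and Adh7 (1.79). Rarb, Stra6, Lrat and Dhrs3 stand in 2 panels each.

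For the 2 members with the smallest p, the genes of nearest profile were found by Euclidean distance of log2 values, each centred on its own mean over the 4 arrays. For Crabp2 these were Cklf, Wdr61 and Stom, at distances of 0.10, 0.12 and 0.15, beside a median of 1.75 over 13064 genes. Stom, the stomatin gene of membranes, had a log2 difference of 1.62 ± 0.27 (SE, limma adjusted p = 0.0371). Its signals were 4996 and 3505 in bitransgenic skin, against 1403 and 1299 in wild type skin. Cklf and Wdr61, which lay nearer to Crabp2, did not pass the threshold (limma adjusted p = 0.0908 and 0.0525). All were picked for likeness to Crabp2 on these same arrays, so their differences are no separate evidence for it. For Rbp4 the nearest were Rptn, Ypel2 and Klhdc1, at 0.082, 0.091 and 0.097. Rptn, the repetin gene of the cornified envelope, had 711 and 947 in bitransgenic skin, against 3076 and 1709 in wild type skin. These distances rest on 4 arrays and describe likeness alone.

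Of the other marker lists, those of hair and muscle had larger differences than any retinoid gene. The 12 markers of hair shaft and inner root sheath summed to 1628 and 20391 in bitransgenic skin, against 143703 and 250581 in wild type skin. All 12 were lower in bitransgenic skin with no overlap between groups, and 7 passed the threshold. For 10 skeletal muscle markers the sums were 20654 and 27532 in bitransgenic skin, against 233486 and 101825 in wild type skin. All 10 were lower with no overlap, and 8 passed the threshold. Macrophage and Langerhans cell markers summed to 28801 and 48980 in bitransgenic skin, against 27599 and 15969 in wild type skin, with 0 of 10 called and 3 higher at an unadjusted p under 0.05. Sums of sebaceous, melanocyte and endothelial markers overlapped between genotypes, with 0 called in each list. Those of melanocytes were 2369 and 2671 in bitransgenic skin, against 2428 and 17461 in wild type skin, so the wild type animals lay far apart. The part of these tissues in the retinoid values was not tested. Each array signal is relative to the rest of its array.

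**Figure D4:**
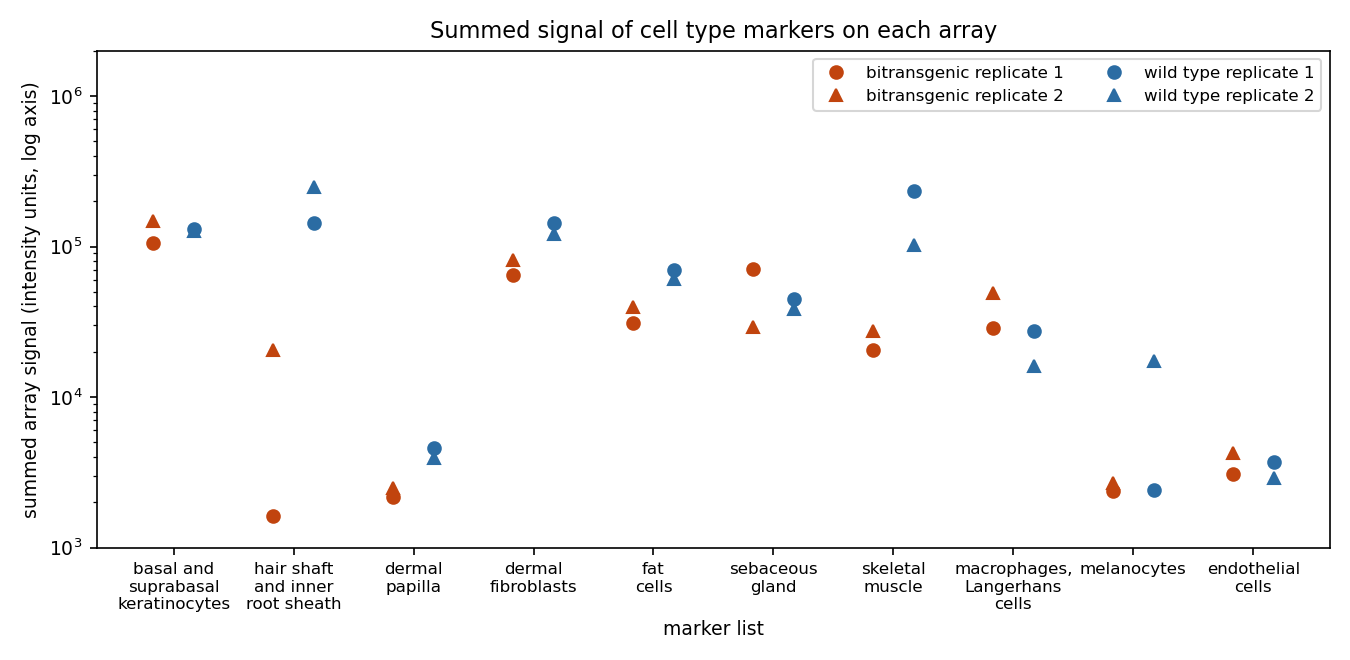
Summed array signal (intensity units, log axis) of 10 marker lists on each array, with bitransgenic left of wild type, circles for replicate 1 and triangles for replicate 2. Keratinocyte sums overlap (105905 and 147187 in bitransgenic skin), while fat cell, fibroblast, dermal papilla, hair and muscle sums are lower on both bitransgenic arrays.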

How the data were processed

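The deposited values are probe set signals, an array intensity on a linear scale, for which the submitters' processing notes name MAS5 and the affy package without versions or roles. The mean of each array, with 2% trimmed at each end, was 500, so the arrays had been scaled alike. Of 45101 probe sets, 64 were controls. In the platform annotation 34945 had 1 gene symbol, 932 several and 9160 none. The genome build of the probe sets is not given in the sources used here.

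Signals were taken as log2(signal + 16) with no further normalization. Probe sets with a mean at or above the 40th percentile (log2 6.19, signal 57.0) were kept, 27022 in all. Each of 13070 genes was represented by its kept probe set of highest mean. The genotypes were compared with limma 3.58.1 under R 4.3.3, by lmFit and by eBayes with an intensity trend (2 residual and 4.45 prior degrees of freedom). P-values were adjusted over all genes by Benjamini-Hochberg, with a threshold of 0.05. Another fit took in all 45037 non-control probe sets, so that every retinoid probe set was covered. The number of arrays limits the precision. Each p-value sets a difference against the spread between these animals, with a variance partly borrowed from genes of like signal.

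The named genes were every retinoid gene, and of each other list the genes called without overlap between groups, filled up to 3 by smallest p. Aldh1a2, Aldh1a3, Aldh8a1, Stra6, Dhrs3, Rarres1 and the single cell type markers were named after their values were seen. Members and lists were chosen with earlier results of these data known. The alternatives tried were pseudocounts of 1 and 64, no filter or one at the 60th percentile, quantile or median normalization, a replicate block, no intensity trend, averaged probe sets, leaving out suffixes _x_at and _s_at, and each array left out.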

Additional observations from a re-analysis of the deposited data

How the results depend on the processing

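With 2 arrays a group, single arrays set the counts of calls. Over all genes, 98 rose and 206 fell, against 52 and 132 with no filter (18193 genes tested). Leaving out 1 array gave 22 to 314 higher and 96 to 635 lower genes. The labels give both genotypes replicate numbers 1 and 2, but do not say that a number marks a shared litter or batch. Differences between replicates 1 and 2 correlated across genes at 0.211 between the genotypes. With the replicate block, 207 genes rose and 438 fell, 6 of the other pathway genes rose, among them Rdh12, Adh7, Rbp2 (adjusted p = 0.034) and Hbegf (0.0414), and 1 retinoid gene (and 1 of its probe sets), Crabp2 (0.0144), was called. Retinoid genes called numbered 0, or 1 with equal array medians (Crabp2), and 0 to 1 with 1 array left out. Of the other pathway genes, 2 rose and 0 fell. Those that rose were 1 with a pseudocount of 1, with a pseudocount of 64 or with averaged probe sets, and 0 with no filter or no intensity trend. With 1 array left out, 0 to 5 rose and 0 to 1 fell. The cause of these changes was not tested. All changes of sign came from leaving out 1 array. They gave ranges of -0.19 to 0.82 for Cyp26b1, -1.20 to 0.19 for Cyp26a1, -0.34 to 0.58 for the middle and -0.17 to 0.36 for the dimmest Rxra probe set, and -0.41 to 1.14 for Rara. Crabp2 and Rbp4 kept their direction under all 14 alternatives.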
